A study of Mus musculus with 41 samples.

Results

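The effect of the histone mutation H3.3 K27M on gene expression was compared between forebrain and hindbrain neurosphere cultures of the mouse, gene by gene, as the hindbrain difference (K27M minus WT-Tag) minus the forebrain difference (K27M minus WT-Tag) on the scale log2(FPKM + 1). FPKM stands for fragments scaled by transcript length and by library size. The comparison used 12 of the 41 RNA-seq libraries of the series, 3 in each of 4 groups, and the 13190 of 34591 table entries that reached an FPKM of 1 in at least 3 of the 12 libraries. The other libraries were tumors and took no part in the fit. K27M cultures carried Nestin-cre; H3f3aLSL-K27M-Tag/+ and WT-Tag cultures carried Nestin-cre; H3f3aLSL-WT-Tag/+, so controls also expressed Cre and 1 tagged knock-in allele of H3f3a. Nestin-cre acts in neural stem and progenitor cells, and the loxP-flanked stop cassette (LSL) is removed in the cells where Cre is active. All cultures came from embryos at e15.5 and were kept in conditions for neural precursor cells, as floating clusters of stem and progenitor cells. Libraries are named by group and by the experiment id of the labels, 1 to 3. A letter in the labels ties 1 forebrain to 1 hindbrain culture, and nothing in the labels says whether cultures of a group came from separate embryos, so p-values measure the spread between these libraries.

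Histone H3.3 with methionine at lysine 27 binds and inhibits the Polycomb repressive complex PRC2, and cells that express it lose most trimethylation of lysine 27 on the other H3 histones. That mark keeps developmental and fetal genes silent, and in the nervous system it holds apart the programs of forebrain, midbrain and hindbrain. The mutation is known from gliomas of the midline and brainstem, which is why the response of hindbrain cells was set beside that of forebrain cells.

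The region labels held against Lhx2 and Irx2, but not every regional marker followed them. Lhx2, a forebrain transcription factor, lay between 6.17 and 9.92 FPKM in the 6 forebrain libraries and at 0.107 or below in the 6 hindbrain libraries, whereas Irx2, a factor of midbrain and hindbrain, lay between 6.24 and 11.5 in hindbrain and at 0.121 or below in forebrain. The hindbrain HOX genes were close to 0 in the hindbrain K27M libraries, as given with the regional genes further on. Otx1, planned as a forebrain marker, lay between 1.593 and 1.861 FPKM in hindbrain K27M. That was above every forebrain library (0.947 to 1.589). Pax2, planned as a hindbrain marker, was at 0.027 or below in every library. The 6 progenitor markers (Nes, Sox2, Sox9, Vim, Fabp7, Msi1) summed to between 1964 and 2298 FPKM in every library. Most of that sum was Fabp7 and Vim, which differed by genotype in opposite directions in hindbrain. Fabp7 lay at 780 to 939 in hindbrain K27M and 1272 to 1630 in hindbrain WT-Tag, and Vim at 916 to 991 and 328 to 625. Sex-linked transcripts matched the labelled sex in 12 of 12 libraries, with male WT-Tag and female K27M cultures in experiment 3 of both regions and female cultures elsewhere. H3f3a itself, for which the table gives 1 value over both alleles, had effects of 0.07 in forebrain and 0.11 in hindbrain, a difference of 0.04 ± 0.15 (SE), none of which passed.

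One library stood apart. In hindbrain WT-Tag 1, 481 genes lay more than 1 log2 unit from the mean of the other 2 libraries of its group, against 37 to 314 in the other 11 libraries. Its deviations ran along the K27M effect: across genes they correlated at 0.55 (Pearson) with the forebrain K27M effect of experiments 2 and 3, and those of its forebrain partner, forebrain WT-Tag 1, at 0.46 with the hindbrain effect. The median within-group SD was 0.21 log2 units in hindbrain WT-Tag and 0.12 to 0.14 in the other groups. Counts are therefore given with all 12 libraries and again without hindbrain WT-Tag 1. Depth also moved with genotype. The step between low FPKM values put the depth of 9 libraries at 0.664 to 1.02 of that of forebrain WT-Tag 2, at 0.664 to 0.807 in hindbrain K27M and 0.796 to 1.02 in hindbrain WT-Tag. The steps of forebrain K27M 1 and forebrain WT-Tag 1 were coarser (0.235 and 0.361), and these had the fewest entries above 0 (19720 and 20255, against 21121 to 27280). The part of depth in the results was not tested.

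The K27M effect went the same way in both regions for most genes, and its median size was larger in hindbrain. Of the 13190 genes, 47 passed in forebrain (0.356%) and 1787 in hindbrain (13.5%). In forebrain 24 genes were higher in K27M (0.182%) and 23 lower (0.174%), and in hindbrain 1111 were higher (8.42%) and 676 lower (5.13%). At an unadjusted p below 0.05 the shares were 13.1% and 30.8%. The 2 regional contrasts share no library. All 47 forebrain genes had the same sign in hindbrain, where 41 also passed. Of the 1787 hindbrain genes, 92.1% had the same sign in forebrain, against 76.1% of all genes tested. Their median effect, taken in the direction of the hindbrain effect, was 0.62 in hindbrain, the value that chose them, and 0.27 in forebrain. Across all genes tested the 2 effects correlated at 0.66 (Pearson) and 0.67 (Spearman), and the median absolute effect was 0.14 in forebrain and 0.21 in hindbrain. The counts leaned on single libraries and on the spread shared by the 4 groups. With each region fitted alone, 79 genes passed in forebrain and 212 in hindbrain. Omitting 1 library gave 20 to 178 in forebrain and 569 to 4220 in hindbrain, with 178 and 4220 without hindbrain WT-Tag 1, 49 and 571 without hindbrain WT-Tag 2, and 33 and 569 without hindbrain K27M 1. The hindbrain median was 0.279 without hindbrain WT-Tag 1 and 0.177 without hindbrain WT-Tag 2. Without experiment 3, limma called 0 genes in forebrain (1161 at an unadjusted p below 0.05) and 100 in hindbrain.

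**Figure D1:**
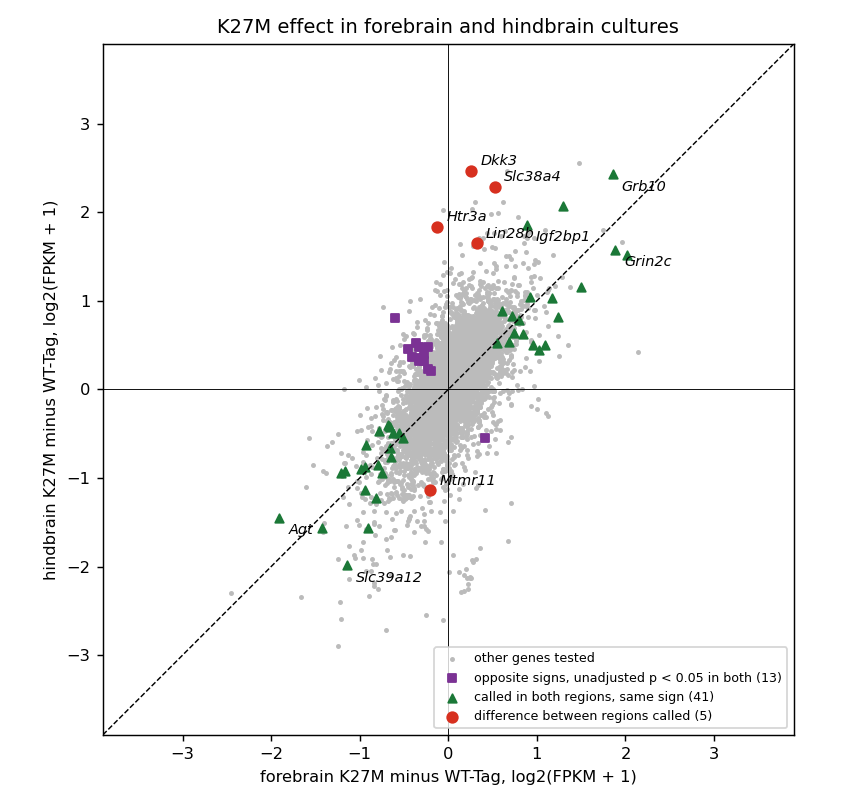
K27M effect (K27M minus WT-Tag, log2(FPKM + 1)) in forebrain on the horizontal axis and hindbrain on the vertical axis, with 1 point per tested gene. Most points lie along the dashed line of equal effects or steeper than it. The 5 genes called for the difference between regions (red) lie between −0.20 and 0.53 in forebrain and beyond 1 log2 unit in hindbrain, the 41 genes called in both regions (green triangles) lie where both effects have the same sign, and the 13 genes of opposite sign (purple squares) lie close to 0.

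The test of the difference itself called 5 genes, 0.0379% of the 13190 (limma, Benjamini-Hochberg adjusted p = 0.0389 for each): Dkk3, Htr3a, Slc38a4 and Lin28b, with a K27M effect higher in hindbrain (0.0303%), and Mtmr11, with a lower one (0.00758%). At an unadjusted p below 0.05 there were 831 genes (6.3%), against 659.5 that chance alone would give. By sign and size, 416 of the 831 had a larger effect of the same sign in hindbrain (242 up, 174 down), 23 a smaller one and 392 effects of opposite sign, most of these with 1 effect near 0. Over all genes tested the split was 7064, 2973 and 3153. Hindbrain minus forebrain was wider in K27M than in WT-Tag cultures for 656 of the 831 (78.9%), against 61.2% of all genes. Without hindbrain WT-Tag 1, 298 genes passed (2.26%), 178 higher (1.35%) and 120 lower (0.91%), among them the same 5. Of the 298, 190 were larger in hindbrain, 108 opposite in sign and 0 smaller. Without both libraries of its culture letter D, an omission added after the values were seen, 228 genes passed (1.73%), 135 higher (1.02%) and 93 lower (0.705%), again with the same 5.

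Lin28b, an RNA-binding protein gene of early development that blocks maturation of let-7 microRNAs, was near 0 in both WT-Tag groups and higher in both K27M groups, most of all in hindbrain. It stood at 0.265, 0.263 and 0.296 FPKM in forebrain K27M and at 0.007, 0.015 and 0.033 in forebrain WT-Tag. In hindbrain it stood at 2.09, 2.26 and 2.41 in K27M and at 0.052, 0.037 and 0.02 in WT-Tag. Groups did not overlap in either region, and every hindbrain K27M library was above every forebrain K27M library. Lin28b reached 1 FPKM in the 3 hindbrain K27M libraries only, so a high level there was a condition of its being tested. With a filter on a mean FPKM of at least 1 it was not tested. The effect was 0.32 ± 0.11 log2 units in forebrain, which did not pass (adjusted p = 0.248), and 1.65 in hindbrain, a difference of 1.33 ± 0.16 (SE, 95% interval 0.98 to 1.67). As a ratio of mean FPKM, K27M was 14.98-fold above WT-Tag in forebrain and 62.0-fold in hindbrain, with WT-Tag means of 0.0183 and 0.0363, so the ratios rest on values near 0.

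Slc38a4, an imprinted gene for an amino acid transporter, had the same shape. It stood at 0.595, 0.641 and 0.517 FPKM in forebrain K27M and at 0.113, 0.11 and 0.073 in forebrain WT-Tag. The hindbrain values were 7.15, 4.17 and 5.12 in K27M and 0.568, 0.18 and 0.198 in WT-Tag. K27M libraries were higher in both regions without overlap, and the highest hindbrain WT-Tag value was that of library 1. Slc38a4 too reached 1 FPKM in hindbrain K27M only and entered the test through that group. The effect was 0.53 in forebrain (adjusted p = 0.222) and 2.29 in hindbrain, a difference of 1.76 ± 0.24 (1.23 to 2.29), and the ratio of means was 5.92-fold and 17.4-fold.

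Dkk3, a secreted member of the dickkopf family of Wnt modulators, was far higher in hindbrain K27M than in the other 3 groups. It stood at 0.595, 0.859 and 0.489 FPKM in forebrain K27M and 0.484, 0.354 and 0.287 in forebrain WT-Tag, and at 11.5, 12.4 and 17.1 in hindbrain K27M and 2.48, 0.927 and 1.68 in hindbrain WT-Tag. The lowest forebrain K27M value was only just above the highest WT-Tag value, and the forebrain effect of 0.26 ± 0.21 did not pass (adjusted p = 0.63). With 2.47 in hindbrain the difference was 2.21 ± 0.29 (1.57 to 2.85). Htr3a, a subunit of the serotonin-gated ion channel, had 0.432, 0.515 and 0.325 FPKM in forebrain K27M and 0.499, 0.627 and 0.522 in forebrain WT-Tag. In hindbrain it had 5.77, 3.64 and 5.56 in K27M and 1.21, 0.411 and 0.448 in WT-Tag. Forebrain groups overlapped, with an effect of −0.12 (adjusted p = 0.824), hindbrain groups did not (1.84), and the difference was 1.96 ± 0.27 (1.37 to 2.55).

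Mtmr11, a myotubularin-related gene, was the gene called with the lower effect in hindbrain. Its forebrain values were 23.5, 20.4 and 23.6 FPKM in K27M and 25.994, 26.003 and 26.014 in WT-Tag, and its hindbrain values 5.67, 5.14 and 5.12 in K27M and 11.7, 13.7 and 13.3 in WT-Tag. K27M libraries were lower in both regions without overlap, with effects of −0.20 in forebrain (adjusted p = 0.352) and −1.14 in hindbrain. The difference was −0.93 ± 0.12 (−1.21 to −0.66). Hindbrain minus forebrain values taken within each culture letter did not overlap between the 3 K27M and 3 WT-Tag letters for any of the 5 genes, as was the case for 14.5% of all genes tested.

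**Figure D2:**
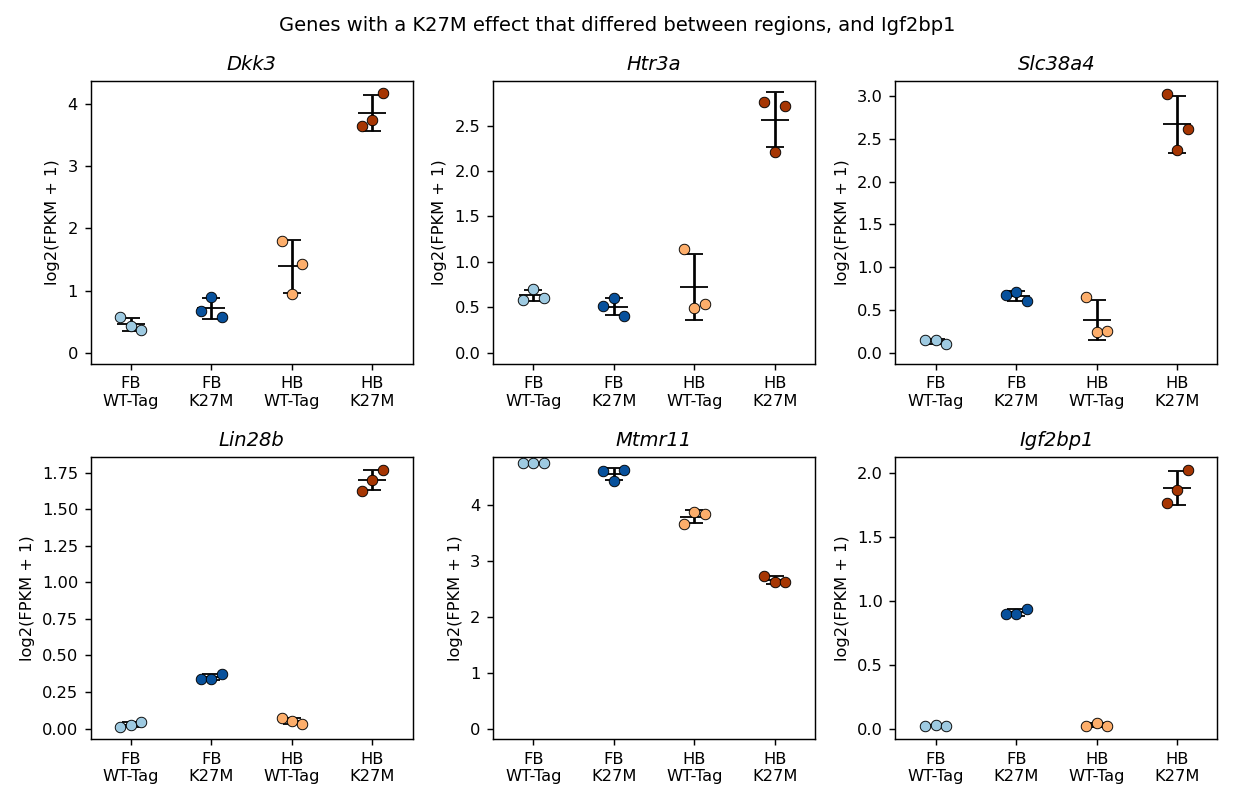
Levels of the 5 genes called for the difference between regions, and of Igf2bp1, as log2(FPKM + 1), with 1 point per library and the mean ± SD of the 3 libraries of each group (FB, forebrain; HB, hindbrain). The 3 hindbrain K27M points stand above all others for Dkk3, Htr3a, Slc38a4, Lin28b and Igf2bp1 and below all others for Mtmr11, and forebrain K27M lies between hindbrain K27M and both WT-Tag groups for Lin28b and Igf2bp1.

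Starts rich in CG dinucleotides are the usual sites of Polycomb repression, so the 250 bases before the annotated start are shown for the called genes found in the RefSeq promoter table (GRCm38.p6), with CG in capitals. Lin28b lies at chr10:45470202-45470451 on the minus strand with 6 CG, Slc38a4 at the most upstream of its 3 starts, chr15:97055957-97056206 on the minus strand with 3, and Mtmr11 at chr3:96161720-96161969 on the plus strand with 3. Of 10710 starts of tested genes in that table, 74.2% held at least 10 CG in such a window (median 16), and of all 32851 starts 37.8% (median 6). Dkk3 and Htr3a are not in the table. No binding or histone mark was analysed here, and the count of CG is a description of these letters.
Lin28b: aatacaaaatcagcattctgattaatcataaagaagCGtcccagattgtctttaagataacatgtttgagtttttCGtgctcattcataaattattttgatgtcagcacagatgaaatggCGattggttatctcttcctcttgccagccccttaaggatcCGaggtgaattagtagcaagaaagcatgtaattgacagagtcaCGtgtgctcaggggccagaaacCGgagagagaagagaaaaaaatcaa
Slc38a4: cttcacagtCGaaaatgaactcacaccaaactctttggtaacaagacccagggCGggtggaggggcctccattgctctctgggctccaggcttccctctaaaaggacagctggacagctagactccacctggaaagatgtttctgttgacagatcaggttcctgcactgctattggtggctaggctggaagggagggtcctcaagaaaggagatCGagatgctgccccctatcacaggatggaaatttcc
Mtmr11: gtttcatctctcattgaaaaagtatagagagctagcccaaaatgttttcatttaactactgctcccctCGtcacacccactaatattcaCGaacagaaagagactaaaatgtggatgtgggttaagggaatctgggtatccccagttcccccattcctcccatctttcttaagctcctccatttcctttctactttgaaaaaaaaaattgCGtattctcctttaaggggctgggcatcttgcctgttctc

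The calls of all 5 genes rest on the spread of these few libraries. With experiment id as a block, 0 genes passed in limma and 974 had an unadjusted p below 0.05, the 5 genes having adjusted p-values of 0.0597 to 0.0647. With the culture letter as a fixed block 0 passed (1184 unadjusted), and with the letter as a random block, added after the values were seen, 16 passed, the 5 among them. Leaving out 1 library gave 0 calls for 10 of the 12 libraries, 3 without hindbrain K27M 2 and 298 without hindbrain WT-Tag 1, while the sign and approximate size of the 5 differences held throughout (for Lin28b from 1.29 to 1.36).

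**Figure D3:**
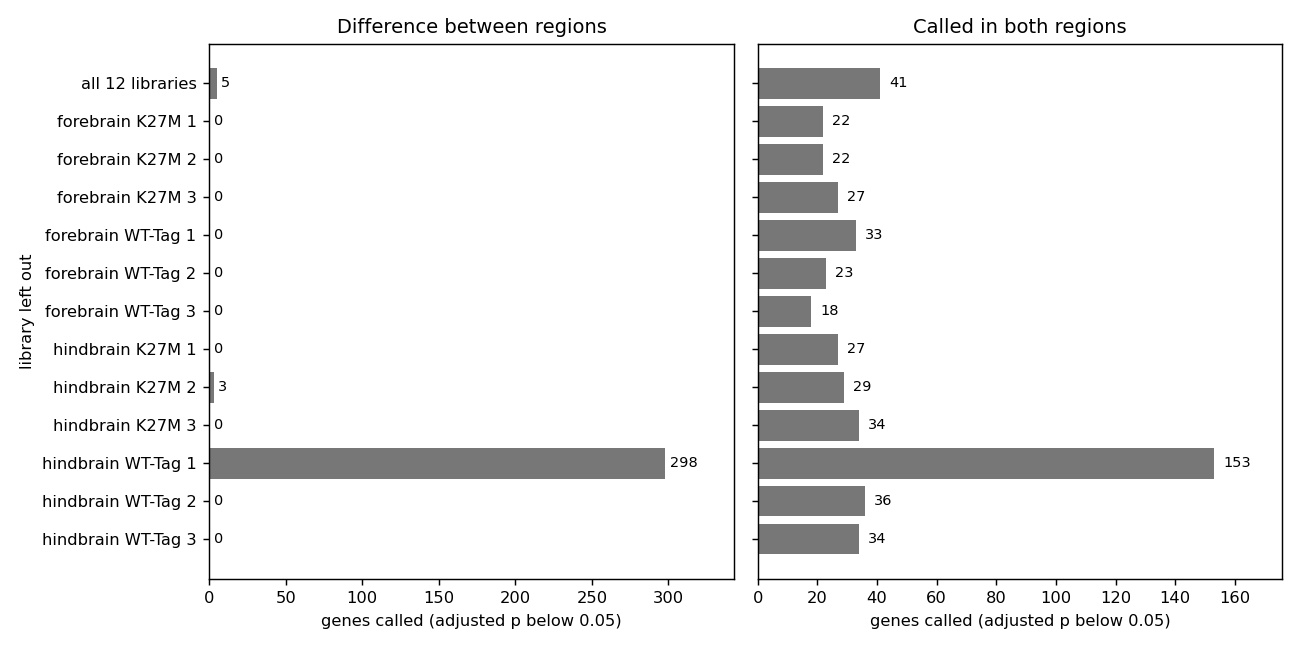
Number of genes called (limma, adjusted p below 0.05) for the difference between regions (left) and in both regions with the same sign (right), with all 12 libraries and with each library left out in turn. The bars for hindbrain WT-Tag 1 (298 and 153) exceed all others.

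Further genes did not pass. Cdh10, an adhesion molecule of the cadherin family, had a difference of −0.99 (adjusted p = 0.0768), Gabrg1, a GABA-A receptor subunit, of −0.999 (0.111), Foxb1, a forkhead factor, of 1.49 (0.111) and Igf2bp1, which encodes a fetal mRNA-binding protein, of 0.97 (0.111). These 4 were picked after their p-values were seen, and all 4 passed without hindbrain WT-Tag 1, Foxb1 with a difference of 1.72. By size, and with letter differences that did not overlap, the largest values that missed the threshold were those of Mab21l2, a developmental gene of eye and midbrain (2.09), Fbln2, a matrix protein (1.82), Epha3, an ephrin receptor (1.81), Rcn3, a calcium-binding protein of the endoplasmic reticulum (1.77), the small nucleolar RNA entry SNORD93 (1.68), and Col12a1 (1.502). Their adjusted p-values ran from 0.148 to 0.688 with all 12 libraries. Mab21l2 illustrates the weight of 1 library: hindbrain K27M libraries had 25.6, 21.9 and 31.9 FPKM and hindbrain WT-Tag libraries 16.7, 4.5 and 2.03, while the 6 forebrain libraries stayed at 0.155 or below. Its difference was 2.80 without hindbrain WT-Tag 1 and then passed (adjusted p = 0.00237).

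On the lower side Gria4, a subunit of AMPA glutamate receptors, had the largest difference. It stood at 1.53, 1.31 and 1.6 FPKM in forebrain K27M and 1.34, 1.81 and 1.64 in forebrain WT-Tag, against 1.2, 1.47 and 3.66 in hindbrain K27M and 8.47, 20.2 and 27.3 in hindbrain WT-Tag. All hindbrain K27M libraries lay below the WT-Tag libraries and forebrain groups overlapped, with a difference of −2.54 ± 0.51 (adjusted p = 0.201, and 0.0034 without hindbrain WT-Tag 1). Also named by size were the 7 near-identical models Gm10715, Gm10716, Gm10717, Gm10719, Gm10722, Gm10800 and Gm10801, with differences of −2.48 to −2.36 (0.234 to 0.39). Gm10800, for example, had 2399, 3586 and 1804 FPKM in hindbrain K27M, 7348, 17747 and 9805 in hindbrain WT-Tag and 8451 to 17634 in forebrain. Reads of such copies cannot be assigned to 1 of them, so they count as 1 uncertain signal.

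Genes called in both regions with the same sign numbered 41 (0.311%), 19 higher and 22 lower in K27M, and 0 genes were called in both with opposite signs. In all 41, K27M and WT-Tag libraries did not overlap in either region, as in 11.7% of all genes tested. The 95% interval of the difference between regions lay within 1 log2 unit of 0 for 33 of the 41 (84.7% of all genes), so for 8 a difference of that size was not excluded by the interval. The effect was larger in forebrain for 25 and in hindbrain for 16. With a pseudocount of 0.1 that order held for 37 of the 41, Grin2c, Zdbf2 and Mfng being among those that turned. Far fewer genes passed in forebrain (47) than in hindbrain (1787), so the choice of the 41 favors large forebrain effects. Over all genes tested, 7064 had a larger effect of the same sign in hindbrain and 2973 a smaller one.

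Several imprinted genes and fetal RNA-binding protein genes were among the shared rises. Grb10, an imprinted adaptor that restrains growth factor signaling, stood at 8.68, 7.87 and 8.06 FPKM in forebrain K27M against 1.86, 1.65 and 1.17 in WT-Tag, and at 23.9, 18.1 and 31.4 against 5.95, 2.16 and 3.51 in hindbrain. The groups were apart in both regions, with effects of 1.86 and 2.43. Igf2bp1 stood at 0.857, 0.862 and 0.917 FPKM in forebrain K27M and at 2.39, 2.64 and 3.07 in hindbrain K27M, and at 0.032 or below in all 6 WT-Tag libraries. Its effect of 0.89 in forebrain and 1.86 in hindbrain made it the shared gene with the smallest p for the difference. Igf2bp1 passed the filter through hindbrain K27M only. Asb4, an imprinted gene for a ubiquitin ligase adaptor, rose by 1.30 and 2.07, and Zdbf2, also imprinted, by 1.24 and 0.82. Igf2bp2 rose by 1.503 and 1.16.

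Other shared rises came from signaling and membrane genes. Cdon, a hedgehog co-receptor, stood at 10.2, 11.7 and 11.96 FPKM against 1.62, 2.37 and 2.19 in forebrain and at 4.89, 6.07 and 4.25 against 1.3, 0.78 and 1.26 in hindbrain, with effects of 2.01 and 1.52. The difference was −0.49 (interval −0.95 to −0.04, adjusted p = 0.754). Grin2c, an NMDA receptor subunit, rose by 1.88 and 1.58, but as ratios of mean FPKM by 4.51-fold in forebrain and 18.1-fold in hindbrain, since hindbrain WT-Tag was at 0.172 or below. Gjc1, a connexin, rose by 1.17 and 1.03, Cpne7, a calcium-dependent membrane-binding protein, by 0.93 and 1.05, Mfng, a glycosyltransferase that modifies Notch receptors, by 0.80 and 0.78, Bmi1, a core protein of the other Polycomb complex PRC1, by 0.74 and 0.64, and Pbx3, a HOX cofactor, by 0.55 and 0.53.

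The shared falls held many genes that are prominent in astrocytes. Agt, angiotensinogen, stood at 3.01, 3.72 and 1.51 FPKM in forebrain K27M against 9.0, 14.3 and 15.45 in WT-Tag, and at 16.1, 17.6 and 21.9 against 42.9, 54.3 and 59.8 in hindbrain. The groups were apart in both, and Agt fell by 1.91 and 1.45. Slc39a12, a zinc transporter, fell by 1.14 and 1.99, Mt3, a metallothionein of brain, by 0.91 and 1.57, Slc4a4, a bicarbonate transporter, by 0.81 and 1.22, and Clu, a secreted chaperone, by 0.98 and 0.90. Sepp1, selenoprotein P, fell by 1.42 and 1.56, Paqr7, a membrane progestin receptor, by 1.21 and 0.95, Wdfy1, an endosomal adaptor, by 1.17 and 0.93, and Plcd4, a phospholipase C, by 0.94 and 0.87. The interval of the difference left out 0 for 9 of the 41, although none passed over all genes. The effect was larger in hindbrain for Slc39a12, Mt3, Asb4 and Igf2bp1 (differences −0.85, −0.66, 0.77 and 0.97) and smaller there for Basp1, Cth, Cdon, Zfp711 and Dera (−0.59, −0.58, −0.49, −0.45 and 0.28).

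Of the 41 genes, 17 passed in both regions under each of the 12 omissions of 1 library, among them Cdon, Asb4, Grin2c, Igf2bp1, Gjc1, Agt, Slc39a12, Paqr7, Wdfy1, Mt3 and Clu, and omissions gave from 18 (without forebrain WT-Tag 3) to 153 (without hindbrain WT-Tag 1) shared genes. Forebrain K27M 1 and K27M 2 (22 each), K27M 3 (27), WT-Tag 2 (23) and hindbrain K27M 1 (27) also moved the count by over 1.5 times.

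**Figure D4:**
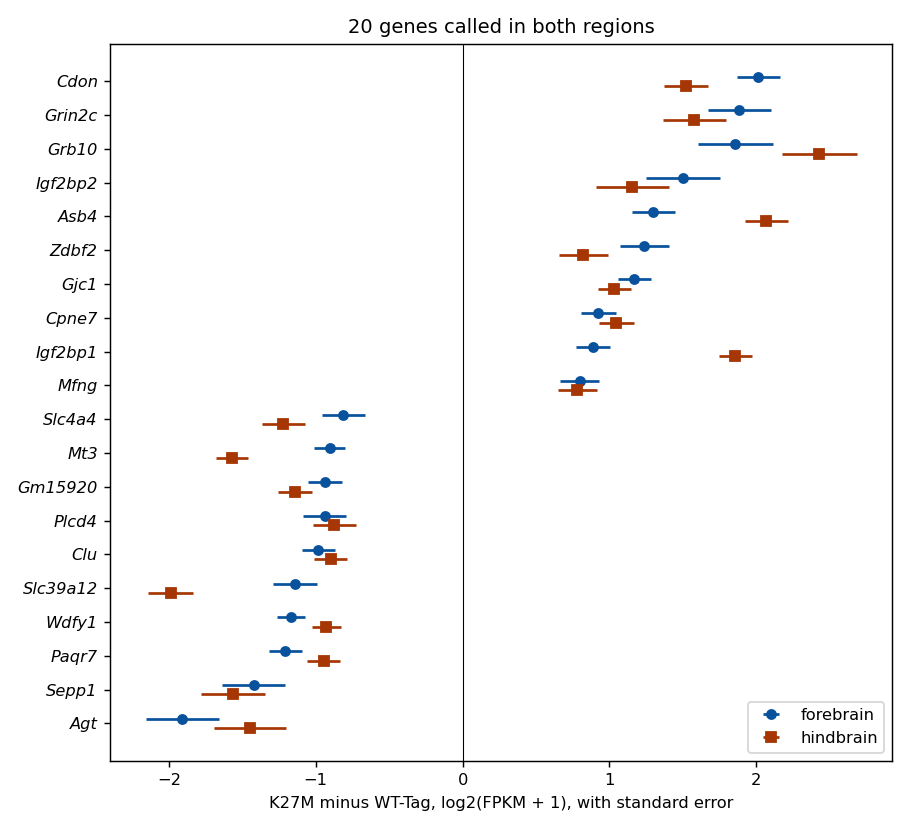
K27M effect ± SE in forebrain (circles) and hindbrain (squares) of the 20 genes named among the 41 called in both regions, as log2(FPKM + 1). Igf2bp1, Asb4, Grb10, Slc39a12, Mt3 and Slc4a4 have the hindbrain value farther from 0 by more than both errors. Cdon, Zdbf2, Paqr7 and Wdfy1 have the forebrain value farther by more than both errors, whereas Mfng, Gjc1, Clu and Plcd4 overlap.

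Few genes had opposite effects past a threshold. At an unadjusted p below 0.05 in both regions, 13 genes differed in sign (0.0986%), 12 of them lower with K27M in forebrain and higher in hindbrain, against 1172 genes with the same sign (8.89%). None of the 13 passed for the difference with all 12 libraries. Without hindbrain WT-Tag 1 there were 45 such genes, and 6 of the 13 passed for the difference: Myh14 (adjusted p = 0.0105), Ifitm2 (0.0236), Aldh3b1 (0.0246), Sdc4 (0.0285), Plekhg1 (0.0385) and Gm9845 (0.0467). In that fit 298 of all 13190 genes passed (2.26%). The 13 were chosen by opposite effects in these same libraries, which already makes for a large difference, so these 6 calls are no independent test. Myh14, a nonmuscle myosin heavy chain, had 1.64, 1.51 and 1.13 FPKM in forebrain K27M against 3.24, 2.25 and 2.55 in WT-Tag, and 6.83, 4.3 and 5.32 against 4.39, 1.64 and 2.47 in hindbrain. Only the forebrain groups were apart, since hindbrain WT-Tag 1 overlapped K27M, and the difference was 1.40 ± 0.33 (adjusted p = 0.292). Spnb3, a beta spectrin, was the 1 gene with the reverse order, at 0.41 and −0.55. Plekhg1 (−0.37 and 0.52), Ifitm2, an interferon-induced membrane protein (−0.33 and 0.48), Aldh3b1 (−0.41 and 0.37), the microRNA entry Mir1938 (−0.46 and 0.46) and Fas, the death receptor and p53 target (−0.33 and 0.33), made up the same pattern.

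Of genes called in only 1 region, none but Dkk3, Htr3a, Slc38a4, Lin28b and Mtmr11 passed for the difference, so the other calls do not show that an effect was confined to a region. The gene model Gm17498 was called in forebrain (2.15, against 0.43 in hindbrain). Sp8, a forebrain transcription factor, was called in forebrain (0.86, against 0.25 in hindbrain) with a difference of −0.61 (adjusted p = 0.532). In hindbrain Sp8 was low, at 0.235, 0.44 and 0.157 FPKM in K27M and 0.019, 0.073 and 0.108 in WT-Tag, without overlap. As ratios of mean FPKM Sp8 rose 2.62-fold in forebrain and 4.16-fold in hindbrain. The order of its 2 effects thus depended on the scale, and the hindbrain ratio rests on low values. On the hindbrain side large effects were those of Apoe, an apolipoprotein secreted by astrocytes (−2.59, against −1.21 in forebrain), and St6gal2, a sialyltransferase (−2.54 and −0.26). St6gal2 stood at 0.262, 0.397 and 0.274 FPKM in hindbrain K27M and at 2.09, 10.7 and 11.3 in WT-Tag, with 1.25 to 2.13 in forebrain. Its difference of −2.29 (adjusted p = 0.317) became −2.94 (0.000305) without hindbrain WT-Tag 1.

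Gene lists were described by counts and medians of tested members, beside the medians over all genes tested of 0.04 in forebrain, 0.09 in hindbrain and 0.04 for the difference. Of 33 lists with 742 members, 412 members were tested. The list counts stand beside the shares over all genes tested. These were 8.42% passing higher and 5.13% lower in hindbrain, and 0.182% higher and 0.174% lower in forebrain. The difference called 1 member each of the fetal growth, imprinted and Wnt lists (Lin28b, Slc38a4 and Dkk3) and 0 of every other list. Of 9 tested members of the fetal growth and Lin28 list, 2 rose in forebrain and 7 in hindbrain, with medians of 0.67 and 0.92. Its other members had differences from −0.51 for Hmga2, a chromatin protein of fetal cells, to 0.97 for Igf2bp1. Of 27 imprinted genes 3 passed in forebrain and 11 in hindbrain, all higher. Peg10, a retrotransposon-derived imprinted gene, had 42.4 FPKM in hindbrain K27M against 13.9 in WT-Tag and 10.7 against 7.61 in forebrain (difference 1.33, adjusted p = 0.64, and 1.86 and 0.0034 without hindbrain WT-Tag 1), and Igf2r a difference of 0.77. Snrpn, Ube3a and Nap1l5 had differences of −0.09, −0.07 and −0.12.

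Hindbrain and midbrain genes moved both ways in hindbrain, and their median effect in forebrain was 0.01. Of 16 tested hindbrain and midbrain genes, 8 passed higher and 2 lower in hindbrain and 1 higher in forebrain, and 8 effects differed in sign between regions. Mab21l1 (1.09), Foxb1 (1.44), Mab21l2 (2.03) and the Iroquois factors Irx1, Irx2 and Irx5 (0.46 to 0.51) rose in hindbrain, whereas En2, a factor of the midbrain-hindbrain boundary, fell by 0.90 as did Cnpy1, expressed in the same territory (−0.81). Differences for this list at an unadjusted p below 0.05 were 6 positive and 3 negative, against 3.7% and 2.6% of all genes. Otx1, a factor of forebrain and midbrain, rose in hindbrain cultures from 1.153, 0.172 and 0.113 FPKM in WT-Tag to 1.86, 1.59 and 1.86 in K27M (effect 0.97, difference 0.82, adjusted p = 0.681). Of 10 tested forebrain genes, 1 passed higher in forebrain and 1 higher in hindbrain. Their medians were 0.23 in forebrain and 0.34 in hindbrain, with a median difference of −0.009. In forebrain Emx2 and Lhx2 had effects of 0.32 and 0.37 that did not pass. Their forebrain K27M and WT-Tag libraries did not overlap, as in 24.9% of all genes tested.

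The HOX genes, which specify position along the hindbrain and spinal cord, were too low for the filter, and 0 of 39 were tested. Their summed FPKM was 1.68, 7.69 and 19.1 in hindbrain WT-Tag and 0.239, 0.722 and 0.235 in hindbrain K27M, and 0.589 or below in each forebrain library. Hoxa2, the most abundant, had 0.642, 2.46 and 4.45 FPKM in hindbrain WT-Tag and 0, 0.213 and 0.055 in hindbrain K27M. Of the 39, 17 were lower in all hindbrain K27M than in any hindbrain WT-Tag library and 0 higher, where groups did not overlap for 28% of genes tested, in either direction. The lowest of the hindbrain WT-Tag sums was again that of library 1.

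Among signaling lists the Wnt list had medians of 0.11 in forebrain and 0.35 in hindbrain. Of its 27 tested members 9 rose and 2 fell in hindbrain and 0 passed in forebrain. Sfrp5, a secreted Wnt inhibitor (1.32 in hindbrain, −0.01 in forebrain), the transcription factor Tcf7l2 (1.07 and −0.09) and the ligand Wnt7a (1.05 and 0.11) rose in hindbrain, and the feedback target Axin2 fell there (−0.95 and 0.02). Their differences of 1.34, 1.16, 0.93 and −0.97 did not pass, and Tcf7l2 and Wnt7a did without hindbrain WT-Tag 1. Of 16 ephrin and Eph genes 6 rose and 1 fell in hindbrain, with Epha3 at 2.47 and Epha4 at −0.90. Among 14 collagens Col12a1 rose by 1.98, Col9a3 by 0.93 and Col11a1 fell by 1.01 in hindbrain, with forebrain effects of 0.48, −0.18 and −0.20.

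No member of the p53, CDK inhibitor or immediate early lists passed for the difference. Positive differences made up 7756 of the 13190 genes tested. Of 23 p53 targets, 18 had a positive difference, 8 of them at an unadjusted p below 0.05, against 3.7% of all genes tested. In hindbrain 7 rose, against 8.42% of all genes, and in forebrain 0 did, against 0.182%. Cdkn1a, the cyclin-dependent kinase inhibitor p21, stood at 62.0 FPKM in hindbrain K27M against 37.9 in WT-Tag and 66.6 against 64.4 in forebrain, a difference of 0.65 ± 0.18 (adjusted p = 0.429). Pmaip1, a proapoptotic gene, rose by 1.70 in hindbrain, with 0.89 in forebrain. Of 7 CDK inhibitors 3 rose in hindbrain, and Cdkn2a, which encodes p16 and p19, was at −0.57 in forebrain and 0.09 in hindbrain. Immediate early genes had medians of 0.03 and 0.48, and 14 of 15 differences were positive. These genes are induced within minutes by many stimuli, and hindbrain WT-Tag values were the lowest of the 4 group means for Egr1, Ier2, Junb and Fos.

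None of the PRC2 genes passed for the difference. Of 12 tested subunits and partners, 11 had a positive difference with a median of 0.14, and the differences of Ezh2, Eed and Suz12 were 0.14, 0.22 and 0.13 (adjusted p above 0.96 for each). The 10 tested genes for H3.3 and its chaperones had a median difference of −0.03.

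Some astrocyte genes fell in both regions, and some oligodendrocyte genes fell in hindbrain. Of 17 tested astrocyte genes, 6 passed lower in forebrain and 12 in hindbrain, 0 higher in either, with medians of −0.91 and −1.22. Their differences between regions were negative for 12 and positive for 5, with a median of −0.41, and 0 passed. Among the negative ones, Aldoc, Aqp4 and Slc1a2, an aldolase, a water channel and a glutamate transporter, had differences of −1.34, −1.66 and −0.83. Their adjusted p-values were 0.549, 0.84 and 0.766, and these 3 differences passed without hindbrain WT-Tag 1. Summed over the 18 listed genes, the level was 727 to 857 FPKM in forebrain K27M, 1168 to 1522 in forebrain WT-Tag, 579 to 609 in hindbrain K27M and 1026 to 1423 in hindbrain WT-Tag. Mature oligodendrocyte genes had medians of −0.83 and −1.54, with 0 of 8 passing in forebrain and 3 in hindbrain, and sums of 26.5 to 69.1, 46.6 to 122, 23.3 to 33.6 and 40.1 to 120 FPKM in the same order. Precursor genes of that lineage had medians of −0.02 and −0.35. Lhfpl3 stood at 7.07 FPKM in hindbrain K27M against 35.7 in WT-Tag and 22.7 against 21.4 in forebrain, whereas Olig1 and Olig2 had differences of −0.18 and −0.02. The share of these cell types in the regional differences was not tested, and in bulk RNA fewer cells of a type and less RNA per cell cannot be told apart. Genes of pericytes and fibroblasts summed to 33.6 to 44.1 FPKM in hindbrain K27M, to 43.1, 17.2 and 23.3 in hindbrain WT-Tag 1, 2 and 3, and to 18.5 to 30.9 in forebrain, and their part in the matrix genes named above, such as Fbln2 and Col12a1, was not tested. Endothelial genes summed to 2.33 to 2.67 in hindbrain K27M and 1.24 to 1.41 in hindbrain WT-Tag. Sums for microglia and red blood cells were at most 6.46 and 0.46 FPKM. Neural stem and progenitor genes had medians of 0.19 and 0.18 and no member called for the difference.

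**Figure D5:**
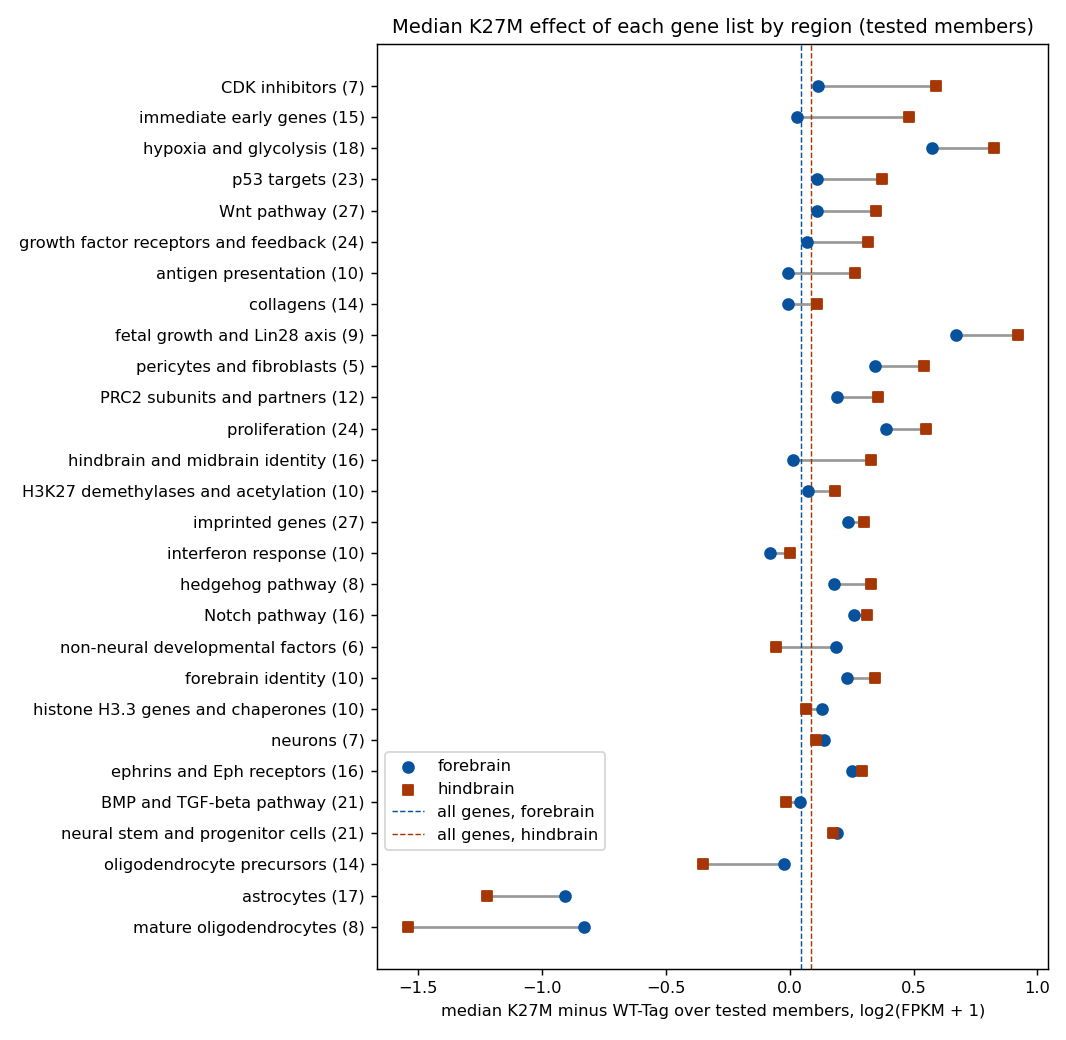
Median K27M effect over the tested members of each of 28 gene lists, in forebrain (circles) and hindbrain (squares), as log2(FPKM + 1), with the number of tested members in parentheses and dashed lines at the medians of all genes. Lists are ordered by median difference, from CDK inhibitors (0.56) and immediate early genes (0.51) at the top to mature oligodendrocyte genes (−0.86) at the bottom.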

How the data were processed

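The authors deposited 1 table of gene-level FPKM values for the series, per the file headers, and the 12 neurosphere columns were used here. The submitters' processing notes name CASAVA, TopHat2, STAR and the mm9 build, with no version or role, and the labels' protocols give Trizol extraction with ERCC spike-ins and a stranded total RNA kit. Counts are not part of that table, so no interval for counting error is given. FPKM plus a pseudocount of 1 was put on the log2 scale, which understates the change of low genes. Entries that reached 1 FPKM in 3 or more libraries were fitted as 4 group means in limma 3.58.1 (R 4.3.3) with a mean-variance trend, 2-sided, with Benjamini-Hochberg adjustment over the 13190 genes and a threshold of 0.05. Errors of effects and differences are SE from that fit and intervals are 95%. An exact permutation test of 3 against 3 libraries cannot go below 0.1 and was not used. In simulated data over 13190 genes, 100 differences of 1 log2 unit and 100 of 2 were planted in hindbrain K27M. They were planted only in genes with a mean log2(FPKM + 1) above 2. Noise was normal, with 1 SD per gene for all 4 groups. Of these differences 65% and 95% were recovered. Low genes and the wider spread of hindbrain WT-Tag were not simulated, so these shares are not the power of the comparison itself.

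Named genes were, per direction, those past the threshold and then, to 10, the largest differences at an unadjusted p below 0.05 whose letter differences did not overlap. Shared genes were ranked by the smaller of both effects (10 per direction), opposite ones likewise (6), and genes called in 1 region by size (5). Some genes that this rule selects are not reported here. The genes, lists and tests were chosen with earlier results of these data known. Residuals of libraries with the same experiment id but another letter correlated from −0.451 to 0.443. They were all positive in experiment 1 (0.314 to 0.443) and of both signs in experiments 2 and 3, so the id was not shown to pair the libraries throughout. The letter ties libraries by label, and its pairs correlated at 0.165 to 0.712 for the 3 WT-Tag letters, 0.216 for A and −0.0471 and −0.0405 for B and C (consensus 0.276), so fits with a letter block are given beside the calls. Alternatives changed the pseudocount, filter, scaling, trend and block, and left out libraries, letters or experiment 3. Promoter sequences are from RefSeq (GRCm38.p6).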

Additional observations from a re-analysis of the deposited data

Results flagged for a closer look

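For 5 genes the K27M effect differed between hindbrain and forebrain by the test of the difference itself (limma, adjusted p = 0.0389 each). The difference, hindbrain minus forebrain, was 2.21 log2 units for Dkk3, 1.96 for Htr3a, 1.76 for Slc38a4, 1.33 for Lin28b and −0.93 for Mtmr11. Hindbrain minus forebrain levels, which make up this difference, were higher, or for Mtmr11 lower, in all 3 K27M letters than in all 3 WT-Tag letters. Such letter values did not overlap for 14.5% of all genes tested. Lin28b and Slc38a4 passed the expression filter through hindbrain K27M only, so their high level there was a condition of being tested. Of the 12 omissions of 1 library, Htr3a and Slc38a4 passed in 2, and Dkk3, Lin28b and Mtmr11 in 1. Without hindbrain WT-Tag 1 the values were 2.42, 2.17, 1.89, 1.34 and −0.997.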

How the results depend on the processing

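The count of genes called for the difference (5) moved most. It was 0 with a pseudocount of 0.1 or 0.5 (817 and 811 at an unadjusted p below 0.05 in limma), 8 with no filter (2 of the 5 among them), 2 with quantile normalization (0 of the 5) and 16 with the culture letter as a random replicate block (all 5). With experiment id or the culture letter as a replicate block it was 0 (974 and 1184 unadjusted). Omitting letters A, B, C, E or F, or experiment 3, gave 0 (422 to 868 unadjusted), and letter D 228. Omitting 1 library gave 0 to 298.

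Genes shared by both regions (41) numbered 26 with no filter, 89 with quantile normalization, 48 with the experiment block, 18 to 153 without 1 library, 4, 14, 730, 15 and 9 without letters A, B, D, E and F, and 0 without experiment 3. Genes of opposite sign (13) numbered 32 with no filter, 20 with quantile normalization and without experiment 3, 4 to 45 without 1 library, and 6, 38, 2 and 7 without letters A, D, E and F. Among genes at an unadjusted p below 0.05 in either region, 89.1% had the same sign in both, against 76.1% of all genes tested. The 89.1% became 77.7% with no filter and 85.9%, 86.9% and 90.6% without letters B, C and F. It became 87.4% without experiment 3 and 85.5% to 90.7% without 1 library. Of 2779 values of named genes under alternatives, 0 reversed as called values, 315 lost and 71 gained the threshold. The cause of these moves was not tested.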

Other observations

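The tumors of the series, which entered no fit, gave these levels of the called genes as mean ± SD. Lin28b was at 1.31 ± 1.00 FPKM in K27M tumors (n = 20) and 0.491 ± 0.415 in WT-Tag tumors (n = 9), and Slc38a4 at 2.34 ± 2.12 and 0.775 ± 0.989. Dkk3 was at 18.3 ± 6.08 and 25.3 ± 12.6, Htr3a at 0.821 ± 0.495 and 1.13 ± 0.589, and Mtmr11 at 3.55 ± 1.35 and 5.99 ± 3.46.

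Hypoxia and glycolysis genes had mostly positive effects in both regions: 10 of 18 rose in hindbrain and 0 passed in forebrain, with medians of 0.82 and 0.57, and 17 of 18 differences were positive, as were 7756 of all 13190, without passing. All 24 proliferation genes had positive effects in both regions (medians 0.39 in forebrain and 0.55 in hindbrain) and 0 passed in either.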
